A study of Saccharomyces cerevisiae with 7 samples.

Results

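Glycogen is the branched glucose polymer that yeast keeps as a carbohydrate reserve. The 10 genes described here encode its synthesis and breakdown machinery: the glycogenins GLG1 and GLG2, the glycogen synthases GSY1 and GSY2, the branching enzyme GLC3, the glycogen phosphorylase GPH1, the debranching enzyme GDB1, and GAC1, PIG1 and PIG2, which encode known or putative targeting subunits of the protein phosphatase Glc7. The rule that picks them uses gene names and no measured value, and they are 10 of the 5656 genes that had a probe set listed for 1 gene alone. Each had a single probe set, so no choice between probe sets was needed, and all 10 were among the 5220 genes that read above a floor of 12 intensity units on at least 2 arrays and were tested.

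Synthesis begins when glycogenin attaches a short glucose chain to itself. Glycogen synthase lengthens the chain from UDP-glucose and the branching enzyme adds side chains, while the phosphorylase and the debranching enzyme release the glucose again. In yeast, glycogen synthase is switched off by phosphorylation, among others by the kinase Pho85 with certain cyclins, and switched on again by Glc7, which targeting subunits bring to the enzyme. Many genes of this pathway are known to be transcribed more strongly when glucose runs low or under stress and to be held down by protein kinase A.

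Transcripts of haploid CEN.PK113-7D, a laboratory Saccharomyces cerevisiae, were measured on 7 one-colour Affymetrix arrays, each of a chemostat culture. A chemostat holds the growth rate constant by the rate of feeding. All cultures were aerobic and glucose-limited (7.5 g/l in the feed), at 30 °C and pH 3.5, with a dilution rate of 0.1 per h. The 3 control arrays had no further addition, 2 arrays came from cultures with galacturonic acid at 10 g/l, a sugar acid that builds up pectin, and 2 from cultures with 0.23 g/l galactose. One label field of the galactose arrays names galacturonic acid at that dose, but their titles, descriptions and treatment field name galactose, which was used. The labels give each sample its own code but do not call the samples biological replicates. The p-values therefore measure only the spread between these arrays. The codes begin with EH for the control and galacturonic acid arrays and with MA for the galactose arrays. What sets the code series apart is not stated, and it cannot be told apart from galactose itself.

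The galactose arrays stood apart. Control probe sets for the 2 ends of the actin transcript ACT1 gave a 3'/5' ratio of 19.8 on galactose array 1, 306 on galactose array 2 and 1.07 to 1.34 on the other 5. For SPT15, the TATA-binding protein, the ratio was 2.76 and 124 on the galactose arrays and 1.66 to 2.75 elsewhere. The 5' intensities behind 306 and 124, 10.5 and 4.1, lay below the floor, so the size of these ratios is uncertain. The strain's mating type was checked with 7 MATa-specific genes, whose summed intensity was 1579 to 2234.5 on the control arrays, 6466 to 8021 with galacturonic acid and 4001 to 4493 with galactose. MFA1 and MFA2 made up most of each sum. With galacturonic acid all 7 read above every control array on both arrays, as did 20.2% of all genes. With galactose 4 of the 7 read above every control array, as did 31.5% of all genes, while STE2, STE6 and BAR1 overlapped control. The sum of 4 MATalpha-specific genes was 75.3 to 113 in control, 975 to 1020 with galacturonic acid and 90.1 to 237.5 with galactose. Of these 4, MF(ALPHA)2 was at or below the floor on all 7 arrays, and MF(ALPHA)1 made up most of the galacturonic acid sum. The sum of 7 sporulation genes was 69.0 to 90.5 in control and 102 to 116 on the other 4 arrays. SPR3 and DIT1 were at or below the floor throughout, and SPS4, SPO11 and SPS1 on 6, 5 and 4 arrays. The part of these markers in the glycogen gene values was not tested.

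The first comparison set galacturonic acid against control, the question named in the study's design. No glycogen gene passed an adjusted p of 0.05 in the fit over all 7 arrays (limma with Benjamini-Hochberg adjustment over 5220 genes), where 2.32% of all genes were called, 1.44% lower and 0.881% higher. All 10 fitted differences were below 0, with a median of -0.96 on the log2 scale, against a median of -0.012 over all genes and 2651 of 5220 genes below 0. For 9 of the 10 genes both galacturonic acid arrays read below every control array, which held for 21.9% of all genes tested. None read above all controls on both arrays, against 20.2%. At an unadjusted p of 0.05, 7 of the 10 were lower, against 6.78% of all genes. These 10 genes share arrays and are not independent replicates of the condition.

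**Figure D1:**
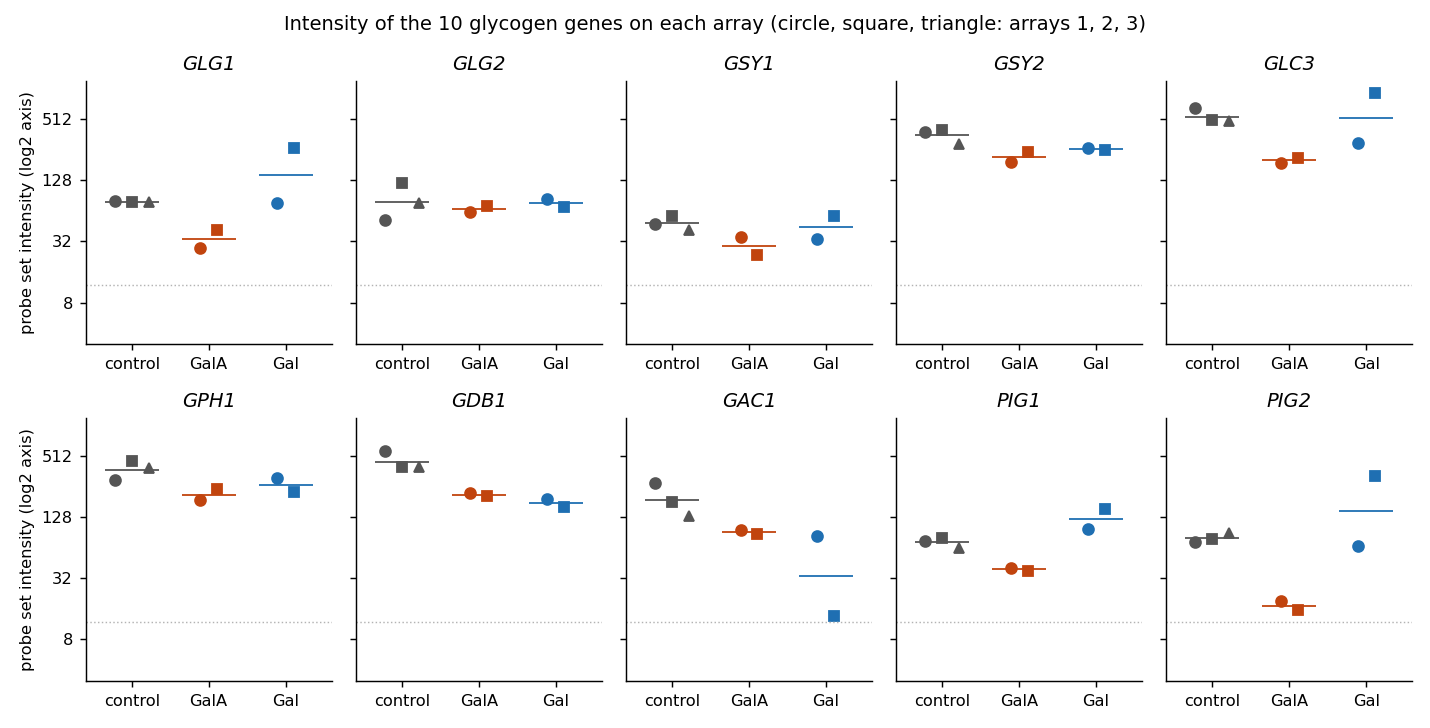
Probe set intensity (log2 axis) of the 10 glycogen genes on the 7 arrays, grouped as control, galacturonic acid (GalA) and galactose (Gal). Points are arrays, short lines are means of the log2 values and the dotted line is the floor of 12. In every gene except GLG2 both galacturonic acid points lie below all 3 control points, and the 2 galactose points lie far apart for GLC3, GLG1, GAC1 and PIG2.

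Of the glycogenins, which prime new glycogen molecules, GLG1 (YKR058W) read 79.9, 77.7 and 78.1 on the control arrays, 27.8 and 41.2 with galacturonic acid, and 76.6 and 267.7 with galactose. The control arrays lay almost on top of each other and both galacturonic acid arrays were near or below 41.2, with no overlap. The log2 difference from control was -1.21 ± 0.51 (SE, adjusted p = 0.387). Its paralog GLG2 (YJL137C) read 52, 118.9 and 76.4 in control, 61.6 and 70.7 with galacturonic acid, and 82.8 and 70 with galactose. GLG2 was the exception among the 10: the control arrays spanned both other groups, and the difference was -0.24 ± 0.40 (SE, adjusted p = 0.893), with a 95% confidence interval from -1.16 to 0.68. Whether the probe sets of paralogs read each other's transcript was not examined.

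The synthases had almost equal differences. GSY2 (YLR258W), the predominant isoform, read 381, 396.2 and 293 in control, 191.2 and 242.4 with galacturonic acid, and 266.1 and 252.2 with galactose. Both additions read below all control arrays for this gene, and the galacturonic acid difference was -0.72 ± 0.30 (SE, adjusted p = 0.370). GSY1 (YFR015C), the minor isoform, read 47.9, 56.3 and 41.9 in control, 35.1 and 23.8 with galacturonic acid, and 34.2 and 56.9 with galactose. Its groups did not overlap between control and galacturonic acid but did between control and galactose, and the galacturonic acid difference was -0.74 ± 0.35 (SE, adjusted p = 0.455). The GSY1 shift exceeded that of GSY2 on galacturonic acid array 2 and fell short of it on array 1, so the arrays gave no common order of the isoforms.

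GLC3 (YEL011W), the branching enzyme, read 651.7, 495.3 and 485.5 in control, 189.5 and 212 with galacturonic acid, and 297.5 and 918.4 with galactose. The galacturonic acid arrays were close together and less than 0.5 of the lowest control value, while the galactose arrays lay on opposite sides of the control range. The log2 difference with galacturonic acid was -1.43 ± 0.46 (SE, adjusted p = 0.215). Of the 7 genes for enzymes and primers GLC3 had the largest such difference.

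Neither breakdown gene passed the test with galacturonic acid. GPH1 (YPR160W), the phosphorylase that releases glucose-1-phosphate, read 291.8, 453.4 and 386.4 in control, 185.3 and 239.6 with galacturonic acid, and 308.1 and 226.9 with galactose. GDB1 (YPR184W), the debranching enzyme needed to pass branch points, read 562.1, 398.5 and 391.2 in control, 219 and 203.3 with galacturonic acid, and 191.6 and 160.5 with galactose. For both genes the galacturonic acid arrays lay below all control arrays, and for GDB1 the galactose arrays lay lower still. The galacturonic acid differences were -0.82 ± 0.33 for GPH1 and -1.07 ± 0.30 for GDB1 (SE, adjusted p = 0.346 and 0.156).

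The targeting subunits of the phosphatase held both the largest difference and the widest spread. PIG2 (YIL045W) read 73.1, 77 and 88.7 in control, 19 and 15.6 with galacturonic acid, and 66.4 and 318.9 with galactose. The galacturonic acid arrays were just above the floor and far from every other array. The log2 difference was -2.20 ± 0.59 (SE, 95% confidence interval -3.56 to -0.85, adjusted p = 0.132), which ranked 48 of 5220 genes from the lowest. PIG1 (YLR273C), related to GAC1, read 74.9, 78.5 and 63.3 in control, 40.7 and 37.2 with galacturonic acid, and 97.3 and 153.5 with galactose. Its 3 groups did not overlap at all, and the difference with galacturonic acid was -0.89 ± 0.34 (SE, adjusted p = 0.315). GAC1 (YOR178C), which targets Glc7 to Gsy2, read 274.3, 179.5 and 131.5 in control, 95.5 and 87.1 with galacturonic acid, and 83.6 and 13.5 with galactose. Both additions read below control for GAC1, whose control arrays themselves ranged from 131.5 to 274.3, and the difference with galacturonic acid was -1.03 ± 0.70 (SE, adjusted p = 0.617).

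The spread that the test assumed came in part from the galactose arrays. The median SD of the 10 genes between arrays was 0.24 on the log2 scale in control, 0.17 with galacturonic acid and 0.49 with galactose, against 0.30, 0.17 and 0.52 over all genes, while the fit used 1 spread per gene. In a fit of the control and galacturonic acid arrays alone, GLC3 and PIG2 fell, with adjusted p of 0.0194 and 0.00907 (limma), where 2.97% of all genes were called lower. The same 2 genes were called without galactose array 1, with 3.22% of all genes called lower, and without galactose array 2, with 2.99%. With array weights 7 of the 10 fell, namely GSY2, GPH1, GDB1, GLC3, GLG1, PIG1 and PIG2, and 8.18% of all genes were called lower. Each galactose array had a weight of 0.263 and the others 0.722 to 2.49. Both galacturonic acid arrays had the same weight, 2.31. In the groups of 2 arrays the weights followed the spread within the group and could not rate single arrays. Over all 20 alternatives the adjusted p ranged from 0.00316 to 0.885 for GLC3, and over the 19 that kept PIG2 from 0.000602 to 0.737. Neither was called when any control or galacturonic acid array was left out.

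**Figure D2:**
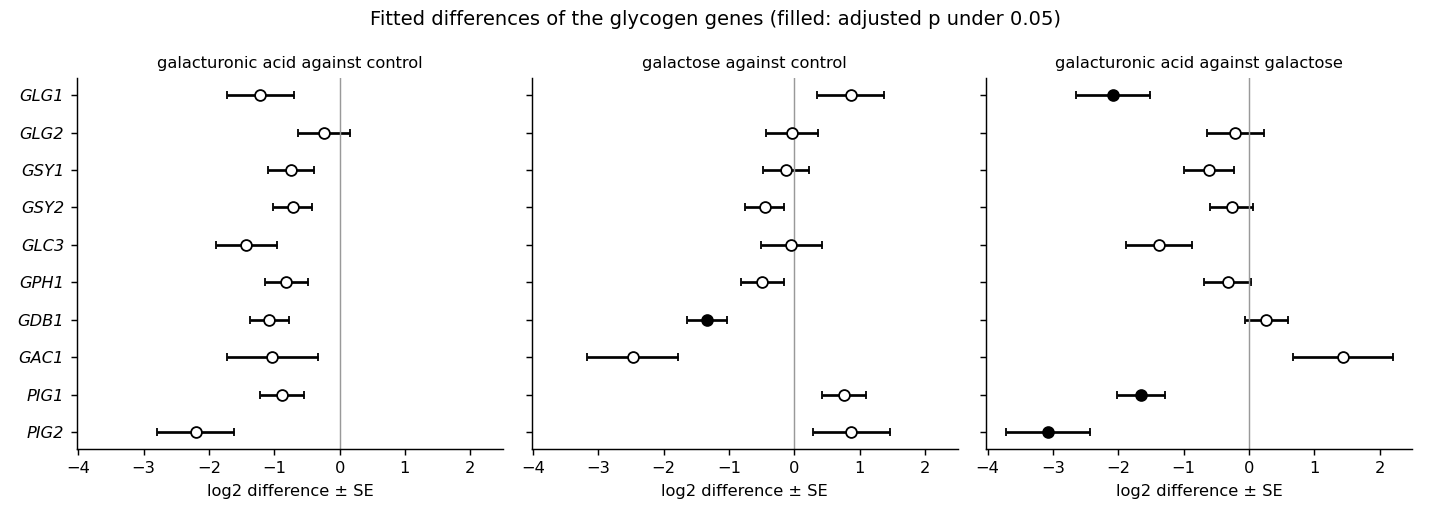
Fitted log2 differences ± SE of the 10 glycogen genes in the 3 comparisons (first group minus second). Filled points passed an adjusted p of 0.05. With galacturonic acid all 10 points lie below 0 and none is filled, with galactose against control only GDB1 is filled, and in the comparison of both additions GLG1, PIG1 and PIG2 are filled.

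With galactose against control the glycogen genes had differences on both sides of 0. GDB1 fell, with a log2 difference of -1.34 ± 0.30 (SE, adjusted p = 0.0382, limma), and was the only 1 of the 10 that passed, while 9.06% of all genes were called, 4.31% lower and 4.75% higher. The 10 genes had a median of -0.088, with 7 below 0, against a median of 0.22 over all genes, and relative to that median GDB1 was at -1.56. The call for GDB1 was lost under 10 of 20 alternatives, among them a comparison of only these groups (adjusted p = 0.0999, with 0.556% of all genes called lower) and the fits without galactose array 2 (0.0767) or without any single control or galacturonic acid array (0.102 to 0.113). Its adjusted p ranged from 0.0106 to 0.227. GSY2, GDB1 and GAC1 read below all controls on both galactose arrays, as did 17.1% of all genes, and PIG1 read above them on both, as did 31.5%. The control samples of this comparison are those of the first one, so the GDB1 values with both additions are set against the same 3 arrays.

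The other 9 genes did not pass. GAC1 had the largest difference, -2.47 ± 0.70 (SE, adjusted p = 0.0597), and passed after quantile normalisation, after scaling to the 75th percentile and with an offset of 16 in place of the floor (adjusted p = 0.0426, 0.0469 and 0.0394, in a range from 0.00258 to 0.177). GSY2 and GPH1 were at -0.45 ± 0.30 and -0.49 ± 0.33, GSY1 at -0.13 ± 0.35, GLC3 at -0.045 ± 0.46 and GLG2 at -0.033 ± 0.40. GLG1, PIG1 and PIG2 were at 0.87 ± 0.51, 0.76 ± 0.34 and 0.88 ± 0.59 (SE). Scaling changed the balance of calls over all genes: 225 were lower and 248 higher as reported, 281 and 131 after quantile normalisation, and 326 and 100 after scaling to the 75th percentile.

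The 2 galactose arrays differed from each other more than either addition differed from control for several of these genes. Array 2 read 4.80-fold above array 1 for PIG2, 3.49-fold for GLG1 and 3.09-fold for GLC3, and array 1 read 6.19-fold above array 2 for GAC1. On array 1, 7 genes lay below all control arrays and 1 above. On array 2, 4 lay below and 5 above. With array 2 as the only galactose array, GDB1 and GAC1 were called lower and GLG1, PIG1 and PIG2 higher, but then 20.4% of all genes were called lower and 20.7% higher. With array 1 alone none of the 10 was called, against 1.9% of all genes lower and 1.76% higher. The 3'/5' ratios of ACT1 and SPT15 moved with these differences, being highest on array 2, and their part in them was not tested.

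**Figure D3:**
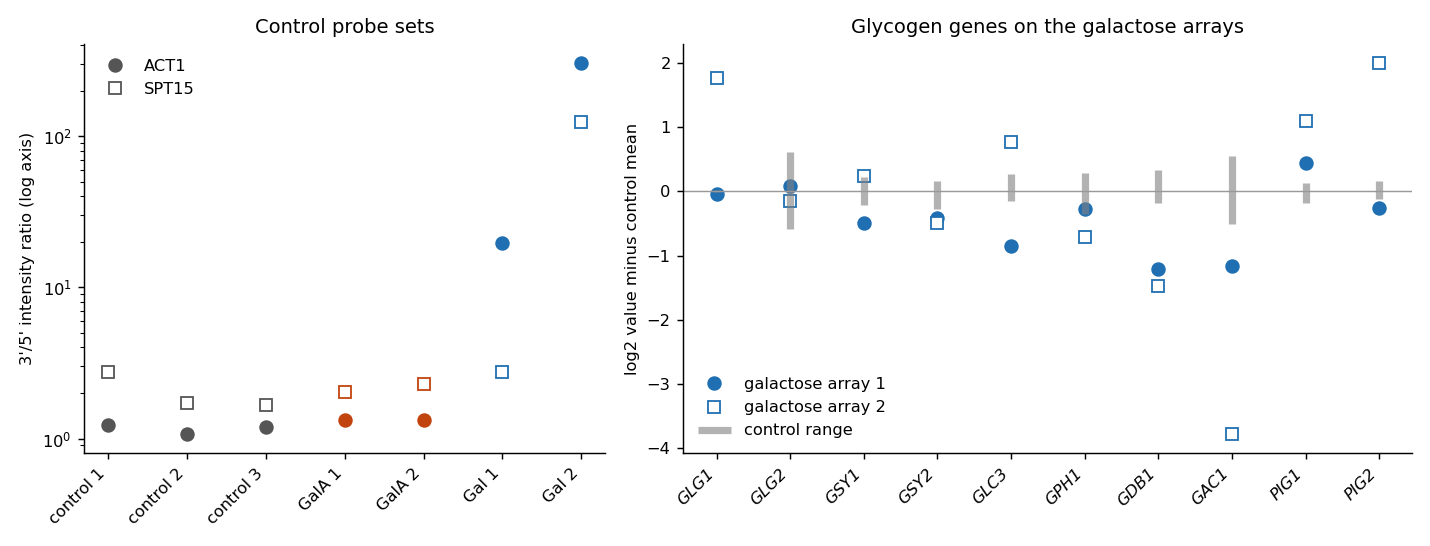
Left, 3'/5' intensity ratio (log axis) of the ACT1 and SPT15 control probe sets on each array, with control in grey, galacturonic acid (GalA) in orange and galactose (Gal) in blue. Right, log2 value minus the control mean of the 10 glycogen genes on both galactose arrays, with grey bars for the range of the 3 control arrays. The ratios rise to 306 and 124 on galactose array 2, where GAC1 is at -3.79 and PIG2 at 2.01.

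Set against galactose, galacturonic acid gave lower values of 3 glycogen genes. PIG2, PIG1 and GLG1 were lower by log2 differences of -3.08 ± 0.65, -1.65 ± 0.37 and -2.08 ± 0.56 (SE, adjusted p = 0.0256, 0.0298 and 0.0469, limma), and none of the 10 was called higher. Over all genes 13.1% were called, 7.91% lower and 5.23% higher. Relative to the median of all genes, -0.24, the differences were -2.84, -1.41 and -1.84. The remaining 7 genes ranged from -1.38 ± 0.51 for GLC3 (adjusted p = 0.0932) to 1.44 ± 0.77 for GAC1 (SE, adjusted p = 0.206), with GDB1 at 0.27, GPH1 at -0.33, GSY2 at -0.27, GSY1 at -0.61 and GLG2 at -0.21. The groups did not overlap for 7 of the 10, 5 lower and 2 higher with galacturonic acid, against 41.4% and 23% of all genes.

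These 3 calls rested on a shared estimate of the spread. When only these 4 arrays were fitted, 0% of the 5220 genes were called, and the adjusted p was 0.174 for PIG2, 0.17 for PIG1 and 0.198 for GLG1. Without galactose array 2 only PIG2 was called, at a difference of -1.95, where 2.34% of all genes were called lower. None of the 3 was called in a fit without any single control or galacturonic acid array. The calls were lost under 9, 11 and 13 of 19 alternatives for PIG2, PIG1 and GLG1, with adjusted p from 0.000863 to 0.216, 0.00538 to 0.222 and 0.00235 to 0.309. Over all genes the split of calls was 413 lower and 273 higher as reported, 227 and 312 after quantile normalisation, and 180 and 355 after scaling to the 75th percentile.

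**Figure D4:**
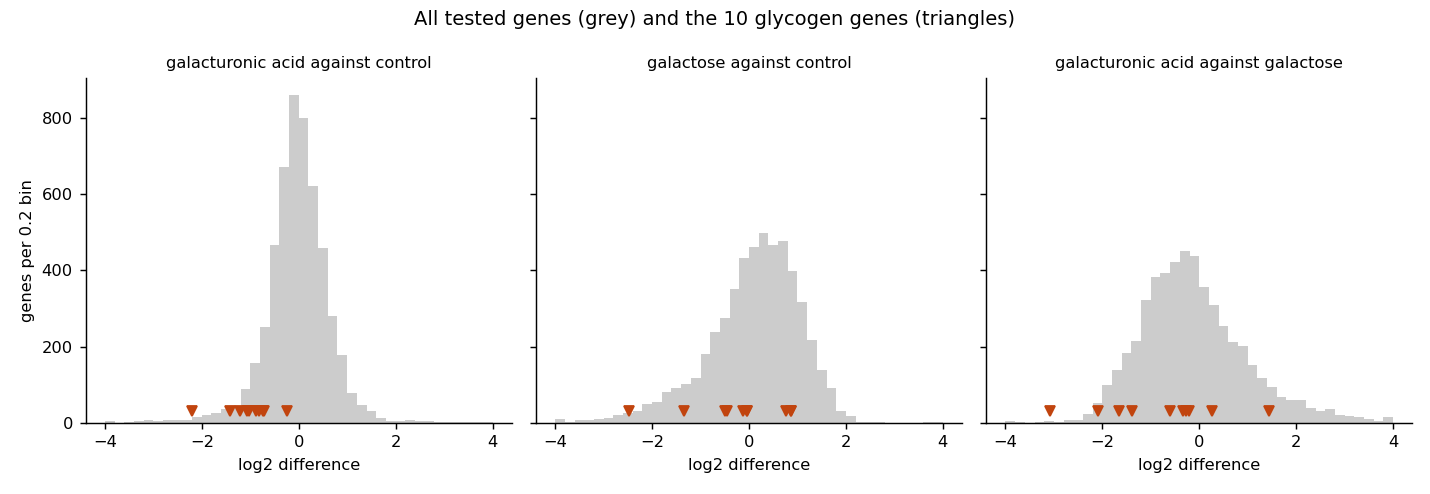
Histogram of the fitted log2 differences of all 5220 genes (grey, genes per bin of 0.2, with values beyond 4 placed in the outer bins) and the positions of the 10 glycogen genes (triangles) in the 3 comparisons. With galacturonic acid against control the triangles lie between -2.20 and -0.24, left of the centre at -0.012, and in both comparisons with galactose they spread over both sides.

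Over the 3 conditions, the mean intensity was lowest with galacturonic acid in 8 of the 10 genes, with GDB1 and GAC1 lowest with galactose. The share of all genes lowest with galacturonic acid was not counted. The order was control, galactose, galacturonic acid for GSY1, GSY2, GPH1 and GLG2, and galactose, control, galacturonic acid for GLC3, GLG1, PIG1 and PIG2. For GLC3 the mean of log2 values put control above galactose. GLC3, GLG1 and PIG2 read below all control arrays on galactose array 1, so galactose stood above control for them through array 2 alone. The differences past the threshold, GDB1 between control and galactose and GLG1, PIG1 and PIG2 between the additions, were all between the ends of these orders, and no neighbours in an order passed the test of their difference.

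The patterns of GSY2 and GPH1 across the 7 arrays were close to each other, with a root mean square difference of 0.25 on the log2 scale between their deviations from the control mean. Against GSY2 the same measure was 0.37 for GSY1, 0.47 for GLG2, 0.55 for GDB1, 0.65 for GLC3, 0.70 for PIG1, 0.92 for GLG1, 1.26 for PIG2 and 1.31 for GAC1, and its median over all genes was 0.79. The 3 genes outside the pathway nearest to GSY2 were FBP26 (0.12), which encodes fructose-2,6-bisphosphatase, POL2 (0.13), the catalytic subunit of DNA polymerase epsilon, and PCL8 (0.15), a Pho85 cyclin. Nearest to GPH1 were ATG33 (0.13), REC107 (0.13) and SHE4 (0.14), with roles in mitophagy, meiotic recombination and myosin folding, where the median over all genes was 0.83. These are the closest of 5220 genes over 7 arrays in 3 conditions.

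Among genes that control the glycogen enzymes, 1 of 8 fell with galacturonic acid and none rose, where 1.44% of all genes were called lower and 0.881% higher. GIP2 (YER054C), related to PIG2 and likewise a putative targeting subunit of Glc7, read 55.4, 60.1 and 39.1 in control, 14.6 and 15 with galacturonic acid, and 45.9 and 84.6 with galactose. The galacturonic acid arrays were alike and just above the floor, far below all others. The log2 difference was -1.78 ± 0.36 (SE, adjusted p = 0.0480, limma), and GIP2 was also called in the fit of control and galacturonic acid alone and without either galactose array. It was lost under 13 of 19 alternatives, including every fit without 1 of the control or galacturonic acid arrays, and its adjusted p ranged from 0.000902 to 0.906, the last with a floor of 50, above most of its values. The 8 genes, which included GLC7 itself, GLC8, PHO85 and 4 of its cyclins, had a median of -0.56, and 6 of them did not overlap with control, all lower, as did 21.9% of all genes.

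Against galactose, 2 of the 8, GIP2 and PCL6, a Pho85 cyclin, were lower with galacturonic acid, where 7.91% of all genes were. The differences were -2.07 ± 0.40 and -2.33 ± 0.62 (SE, adjusted p = 0.0205 and 0.0437, limma). PCL6 read 12.7 and 9 with galacturonic acid, 1 array just above and 1 below the floor of 12, so the floor sets part of its difference, which was -2.54 with a floor of 1. When only the 4 arrays of these groups were fitted, neither was called (adjusted p = 0.157 and 0.187). GIP2 was not called without control array 3 or either galacturonic acid array, nor PCL6 without any single control or galacturonic acid array. Neither was called without galactose array 2 (adjusted p = 0.0509 and 0.0675, over all alternatives 0.00367 to 0.279 and 0.00136 to 0.277). With galactose against control none of the 8 passed, and PCL10, a cyclin that directs Pho85 to glycogen synthase, came nearest, with 1.01 ± 0.40 (SE, adjusted p = 0.114). With each probe set tested on its own, GLC7, which has 2, was called lower in this comparison, where 10.9% of probe sets were called. It was also called between the additions, where 15.2% were. In both cases only its probe set with the smaller p was read. The GLC7 probe set of the fit as reported was at -0.70 and 0.57 (adjusted p = 0.448 and 0.565, limma).

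The supply of UDP-glucose was covered by 6 genes, HXK1, HXK2, GLK1, PGM1, PGM2 and UGP1. None passed in any comparison in the fit as reported. PGM2, the main phosphoglucomutase, read 813.6, 712 and 451.5 in control, 244.2 and 272.8 with galacturonic acid, and 370.8 and 407 with galactose. Both additions read below all control arrays, and the difference with galacturonic acid was -1.31 ± 0.33 (SE, adjusted p = 0.111). With array weights PGM2 was called lower with galacturonic acid, where 8.18% of all genes were. The list median with galacturonic acid was -0.055, with 3 of 6 genes below 0. In the comparisons with galactose the smallest p belonged to the glucokinase GLK1 against control, at -2.65 ± 0.77 (SE, adjusted p = 0.0635), and to the hexokinase HXK2 between the additions, at 3.14 ± 1.09 (SE, adjusted p = 0.0802). Both rested largely on galactose array 2: GLK1 read 920.8 and 109.2 on the galactose arrays and HXK2 1025.8 and 58.4, and without array 2 the differences were -1.11 and 1.07. With an offset of 16 in place of the floor GLK1 was called lower with galactose, where 12.9% of all genes were called. Without galactose array 1, 4 of the 6 were called lower with galactose, HXK1, HXK2, GLK1 and UGP1, where 20.4% of all genes were.

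Trehalose, the other storage carbohydrate of yeast, is made from the same precursor. Of its 7 genes, TPS1, TPS2, TPS3, TSL1, NTH1, NTH2 and ATH1, none passed with galacturonic acid against control, 6 were below 0 and the median was -1.07. TPS2, the trehalose-6-phosphate phosphatase, came nearest with -1.14 ± 0.29 (SE, adjusted p = 0.118), and it was called lower when only these groups were fitted (adjusted p = 0.0407). With array weights 5 of the 7 were called lower, namely TPS1, TPS2, TSL1, NTH2 and ATH1, where 8.18% of all genes were. With galactose against control 1 of the 7 fell, the trehalose-6-phosphate synthase gene TPS1, at -1.32 ± 0.29 (SE, adjusted p = 0.0364, limma), where 4.31% of all genes were called lower. TPS2 was close behind, at -1.12 ± 0.29 (SE, adjusted p = 0.0509, limma). It was called lower after quantile normalisation or 75th percentile scaling, where 7.88% and 8.15% of all genes were called, and with an offset of 16 (12.9%). It was not called with array weights or with only the groups compared. TPS1 was not called when only these groups were fitted (adjusted p = 0.0878), without galactose array 2 (0.0525) nor without any single control or galacturonic acid array (range 0.0148 to 0.227). Between the additions none passed, with ATH1, the acid trehalase, at -1.01 ± 0.35 (SE, adjusted p = 0.0800).

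**Figure D5:**
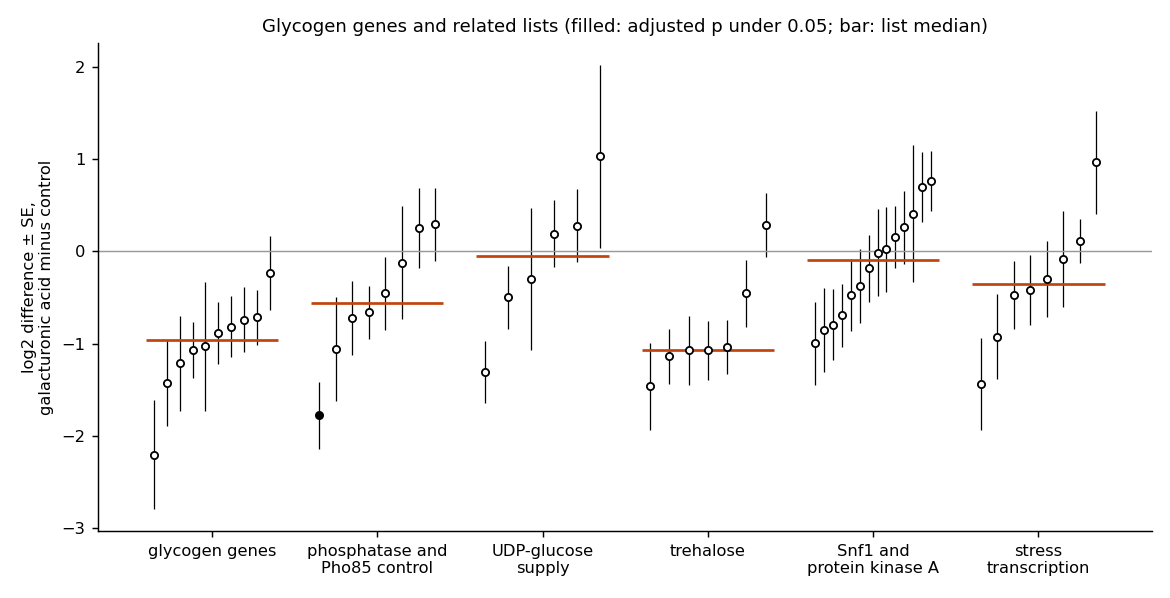
Log2 differences ± SE with galacturonic acid against control for the 10 glycogen genes and 5 related lists, each sorted by value. Horizontal bars are list medians, -0.96 for the glycogen genes and -1.07 for the trehalose genes, and the only filled point, past an adjusted p of 0.05, is GIP2.

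Of 14 genes of Snf1 and protein kinase A signalling, none passed with galacturonic acid against control, where 2.32% of all genes were called. Their median was -0.10. The smallest p was that of PDE1, a cyclic AMP phosphodiesterase, which was at 0.76 ± 0.33 (SE, adjusted p = 0.393). With array weights REG1 and TPK2 were called lower and PDE1 higher, where 14.8% of all genes were called. With galactose BCY1, the regulatory subunit of protein kinase A, fell by 2.05 ± 0.45 (SE, adjusted p = 0.0362, limma) on the log2 scale. It was the only 1 of the 14 called, where 4.31% of all genes were called lower. The call was lost under 10 of 20 alternatives, over which the difference ran from -2.55 to -1.55. Among the losses were array weights, no filter and only the groups compared. Others were the fits without galactose array 2 and without any single control or galacturonic acid array. SNF4 was at 1.38 ± 0.38 with galactose (SE, adjusted p = 0.0572, limma). It was called higher with an offset of 16 in place of the floor, where 12.9% of all genes were called. Between the additions none of the 14 passed, where 13.1% of all genes were called. The smallest p was that of PDE2, with a value of -1.20 ± 0.50 (SE, adjusted p = 0.125). With each probe set tested on its own, only the probe set with the smallest p was read for each gene. For CYR1, which has 9, that probe set was called lower with galactose than in control. Between the additions the probe set with the smallest p was called higher with galacturonic acid. The CYR1 probe set of the fit as reported was at -0.044 and -0.43 (adjusted p = 0.949 and 0.488, limma). In that setting 10.9% and 15.2% of probe sets were called, shares that do not allow for a pick from 9.

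Of 8 genes for transcriptional control under stress, none passed with galacturonic acid against control, where IGO2 was at -1.44 ± 0.50 (SE, adjusted p = 0.261, and 0.0493 without galactose array 1), nor with galactose, where MSN2 was at -1.71 ± 0.52 (SE, adjusted p = 0.0712). MSN2 was called lower with galactose after quantile normalisation and after scaling to the 75th percentile, where 7.88% and 8.15% of all genes were called. With array weights YAK1 and IGO2 were called lower with galacturonic acid against control, where 8.18% of all genes were. Between the additions 2 of the 8, the kinase gene YAK1 and IGO2, a target of the kinase Rim15, were lower with galacturonic acid, where 7.91% of all genes were. The differences were -1.94 ± 0.50 and -2.46 ± 0.55 (SE, adjusted p = 0.0425 and 0.0293, limma). Neither was called when only these groups were fitted (adjusted p = 0.186 and 0.176), without galactose array 2 (0.0773 and 0.0693) or without any single control or galacturonic acid array, and YAK1 not with the mean of its probe sets either (ranges 0.00191 to 0.299 and 0.00235 to 0.19). SGA1, the glucoamylase that digests glycogen during sporulation, was at -0.78 ± 0.72 with galacturonic acid, 0.26 ± 0.72 with galactose and -1.04 ± 0.79 between the additions (SE, adjusted p = 0.748, 0.823 and 0.362). It read 83.2, 47.7 and 72.4 in control, 37.3 and 39.4 with galacturonic acid, and 29.6 and 211 with galactose, so galactose array 1 lay below and array 2 above every other array. Without array 2 both differences that involve galactose turned sign, to -1.16 with galactose against control and 0.37 between the additions. The higher SGA1 mean with galactose thus came from array 2 alone.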

How the data were processed

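Glycogen genes were measured on 7 arrays. Cells were frozen in liquid nitrogen and biotin-labelled cRNA was hybridised, per the labels' protocols. The submitters' processing notes name GCOS 1.2. The authors deposited linear intensity values for 9335 probe sets, and the trimmed mean of each array was 150.1, as read from the values. Neither signal algorithm nor genome build is given in the sources used here. No coordinates are therefore printed. At most 2.05% of values were equal between any 2 arrays.

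The 6504 probe sets with 1 gene in the platform annotation were reduced to 5656 genes by the highest mean. Intensities below 12 were set to 12 before log2 transformation. Genes above that floor on at least 2 arrays entered a fit of 1 mean per group (limma 3.58.1, R 4.3.3, trended eBayes, 4 residual degrees of freedom) with Benjamini-Hochberg adjustment at 0.05. The fit was run on simulated data with 1 spread per gene for all groups. That run does not cover the wider spread of the galactose arrays. The number of arrays limits the precision. Alternatives covered scaling, floor, filter, probe sets, array weights, the groups fitted and each array left out. Locus names come from the RefSeq R64 table.

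The pathway and the other lists were picked with earlier results of these data known. Within the pathway the genes follow from their names alone. All 10 glycogen genes are named, and of the other lists each gene past the threshold or that with the smallest p, with the 3 genes nearest to GSY2 and to GPH1. Replicate numbers follow deposit order and name an array only.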

Additional observations from a re-analysis of the deposited data

How the results depend on the processing

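Over the alternatives, single glycogen genes gained a call 13, 7 and 2 times, lost one 0, 10 and 33 times and turned sign 1, 9 and 0 times in galacturonic acid against control, galactose against control and galacturonic acid against galactose. With galacturonic acid against control, called lower were 0 genes as reported, 2 with only the groups compared, 7 with array weights, and 0 to 2 without 1 array. With galactose against control, 1 gene was called lower as reported, 2 after quantile normalisation, 75th percentile scaling or an offset of 16, 0 with the filter at the median, array weights, only the groups compared or a threshold of 0.01, and 0 to 2 without 1 array, where 0 to 3 were called higher. Between galacturonic acid and galactose, 3 were called lower as reported, 1 after quantile normalisation, a floor of 50 or array weights, 0 without a filter, with the filter at the median, only the groups compared or a threshold of 0.01, and 0 to 4 without 1 array, where 0 to 1 were called higher. The filter at the median kept 5 of the 10 genes. Over all genes the shares called, 2.32%, 9.06% and 13.1% as reported, were 14.8%, 0.307% and 2.59% with array weights, 4.9%, 0.728% and 0% with only the groups compared, 1.03%, 3.15% and 4.31% without a filter, 2.72%, 4.24% and 5.41% with the filter at the median, and 0.441%, 0.479% and 0.939% at 0.01. Without 1 array they ran from 0.0192% to 5.5%, 0.402% to 41.1% and 0.0766% to 44.6%. The cause of these changes was not tested, except that fewer arrays or genes entered some fits.

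Signs turned for values near 0 or decided by 1 array. Without control array 2, GLG2 was at 0.066 with galacturonic acid and 0.27 with galactose, against -0.53 and -0.32 without control array 1. With galactose, GSY1 was at 0.036 with a floor of 50 and 0.24 or -0.50 without galactose array 1 or 2, and GLC3 at 0.026 with array weights, 0.092 without control array 1 and 0.77 or -0.86 without galactose array 1 or 2. Without galactose array 2, GLG1 was at -0.036, GLG2 at 0.088 and PIG2 at -0.26, against 1.77 for GLG1 and 2.01 for PIG2 without galactose array 1. Where a group was left with 1 array, the spread of the others was taken for it. Alternatives for genes of the other lists were chosen after seeing the data. No paired analysis was possible because each code in the labels belongs to 1 array and replicate numbers are deposit order.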
